A study of Mus musculus with 6 samples.

Results

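Immune checkpoint ligands are surface or secreted proteins through which a cell restrains T cells, NK cells or macrophages. Of 10 such genes, Cd274, Pdcd1lg2, Cd80, Cd86, Cd276, Vtcn1, Pvr, Lgals9 and Cd47 each had 1 transcript cluster, a group of probes that the array reads as 1 gene, annotated to no other gene. They are 9 of the 23385 genes measured. The remaining gene, Cd200, was present only on a cluster shared with another gene and was not tested. The members were chosen by name, as ligands of known inhibitory or costimulatory receptors. No cut on their values was made, but earlier results of these data were known.

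Expression was measured on Affymetrix arrays in 4T1, a carcinoma line of the mouse mammary gland described by the labels as lacking HER2 and the progesterone and oestrogen receptors. The cells had been cultured for 24 h with bone marrow-derived macrophages polarised to a pro-inflammatory (PI, 3 arrays) or an anti-inflammatory (AI, 3 arrays) state. Macrophages were then removed with CD11b microbeads on a depletion column, and RNA was taken from the flow-through. Replicates used macrophages from individual mice, with the same tumour line throughout. The labels name neither the polarising agents nor the strain of the mice. No array of 4T1 cells without macrophages was compared, so a difference between PI and AI does not say in which of the 2 co-cultures a gene changed.

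PD-L1, the product of Cd274, and PD-L2, the product of Pdcd1lg2, bind PD-1 on T cells and dampen their activation. In tumour cells the Cd274 gene is known as a target of interferon-gamma, with the kinases JAK1 and JAK2 and the transcription factor IRF1 on the way. CD80 and CD86 bind CD28, which costimulates T cells, and CTLA-4, which restrains them. CD276 (B7-H3) and VTCN1 (B7-H4) are further proteins of the B7 family. PVR (CD155) binds TIGIT and CD96, which restrain, and CD226, which activates. Galectin-9, the product of Lgals9, is a ligand of TIM-3, and CD47 signals through SIRPA on macrophages to hold back phagocytosis.

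No checkpoint ligand differed between PI and AI at a limma adjusted p of 0.05, where adjustment was over all genes. The count was 0 of 9 members, against 0.0727% of all genes (17 genes, all higher in PI). The largest difference was that of Cd274, at 0.53 on the log2 scale, followed by Lgals9 at 0.25. At an unadjusted limma p under 0.05 there were 2 of 9 members, Cd274 and Lgals9, against 7.36% of all genes. The median difference of the 9 members was 0.04, beside -0.01 for all genes.

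The ligands ranged from dim to bright signal, between percentiles 10.5 and 98.3 of all genes. Values are RMA levels on the log2 scale, and signals of different clusters share no scale, so the order below is one of signal and not of transcript amount. Over the 6 arrays, Lgals9 had the highest signal, from 10.60 to 11.03, at percentile 98.3 of all genes by mean level. Cd47 ranged from 10.49 to 10.59, at percentile 97.6. Pvr lay between 9.14 and 9.54, at percentile 92.6, and Cd276 between 8.23 and 8.57, at percentile 85.6. These 4 genes were among the brighter genes of the tumour fraction, whichever macrophages it had been cultured with.

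Cd274 took a middle place, from 5.28 to 6.24, at percentile 60.5. The other ligands were dim. Vtcn1 had 3.60 to 4.31 (percentile 38.0), Cd80 3.33 to 3.60 (27.9), Pdcd1lg2 3.27 to 3.57 (26.4) and Cd86 2.60 to 3.04 (10.5). Between neighbours in this order, only Cd80 and Pdcd1lg2 overlapped in their arrays. Cd47 and Lgals9 were separated by 0.006, and Cd80 and Vtcn1 by 0.003. For comparison, 7 marker genes of T and NK cells had a median level of 3.41, from Cd3e at 3.13 to Nkg7 at 5.06. The signals of Cd80, Pdcd1lg2 and Vtcn1 lay within this wide range, and that of Cd86 lay below all 7.

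**Figure D1:**
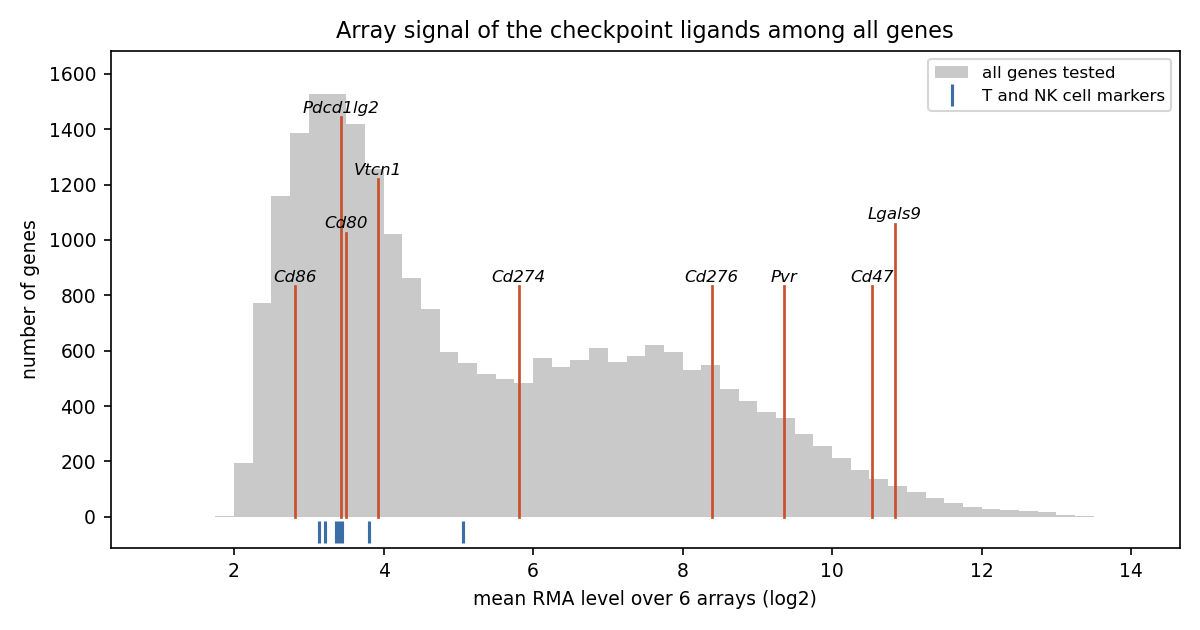
Mean RMA level (log2, x axis) of all 23385 genes as a histogram (number of genes, y axis), with the 9 checkpoint ligands as red lines whose heights carry no value and 7 T and NK cell markers as blue ticks. Cd86, Pdcd1lg2, Cd80 and Vtcn1 lie in the dim peak, Cd274 near 5.81, and Cd276, Pvr, Cd47 and Lgals9 in the bright part.

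Cd274 (transcript cluster 17358544, Entrez 60533, chromosome 19) had levels of 6.12, 6.24 and 5.86 in PI replicates 1 to 3 and 5.28, 5.76 and 5.58 in AI replicates 1 to 3. All PI arrays lay above all AI arrays, and PI replicate 3 was only 0.0954 above AI replicate 2. The means were 6.07 ± 0.19 in PI and 5.54 ± 0.25 in AI (SD, n = 3 each). The fold of PI over AI was 1.45, with a 95% interval of 1.14 to 1.84. The limma p was 0.00789 before adjustment and 0.538 after it, so the difference did not pass. By size, 158 of 23385 genes had a larger difference toward PI, while the smallest difference that passed in any gene was 0.84. The standard error of the Cd274 difference was 0.15, against a median of 0.11 over all genes. In the authors' deposited table, Cd274 had a p-value of 0.0419, a q-value of 0.770 and a fold of 0.691 for AI over PI.

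The second PD-1 ligand, Pdcd1lg2 (cluster 17358552, Entrez 58205), lies next to Cd274 in the order of protein-coding genes on chromosome 19. Its levels were 3.27, 3.57 and 3.46 in PI and 3.49, 3.52 and 3.28 in AI. The groups overlapped completely, with means of 3.43 ± 0.15 and 3.43 ± 0.13 (SD, n = 3 each). The difference was 0.01, and its 95% interval ran from -0.25 to 0.26 (limma adjusted p = 0.997). Its sign turned negative after quantile normalisation or centring of the arrays.

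The CD28 and CTLA-4 ligands had small positive differences at low signal. Cd80 (cluster 17325608, Entrez 12519) had 3.57, 3.60 and 3.52 in PI and 3.33, 3.51 and 3.43 in AI. Its groups did not overlap, although by only 0.0097. The difference was 0.14, from -0.05 to 0.33 (limma adjusted p = 0.752). Cd86 (cluster 17330203, Entrez 12524) had 3.04, 2.78 and 2.87 in PI and 2.65, 2.60 and 2.95 in AI, where AI replicate 3 exceeded 2 of the PI arrays. Its difference was 0.16, from -0.12 to 0.44 (limma adjusted p = 0.808), and it was 0.27 without AI replicate 3 and 0.088 without PI replicate 1.

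The other B7 proteins had negative values. Cd276 (cluster 17527719, Entrez 102657) had 8.32, 8.27 and 8.40 in PI and 8.57, 8.56 and 8.23 in AI. AI replicates 1 and 2 lay above every PI array and AI replicate 3 below all of them. The difference was -0.12, from -0.38 to 0.14 (limma adjusted p = 0.843), and it was -0.23 without AI replicate 3. Vtcn1 (cluster 17400998, Entrez 242122) had 4.00, 3.83 and 3.88 in PI and the widest spread of the members in AI, at 4.31, 3.60 and 3.91. Its difference was -0.03, from -0.43 to 0.36 (limma adjusted p = 0.981), and it was 0.15 without AI replicate 1.

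**Figure D2:**
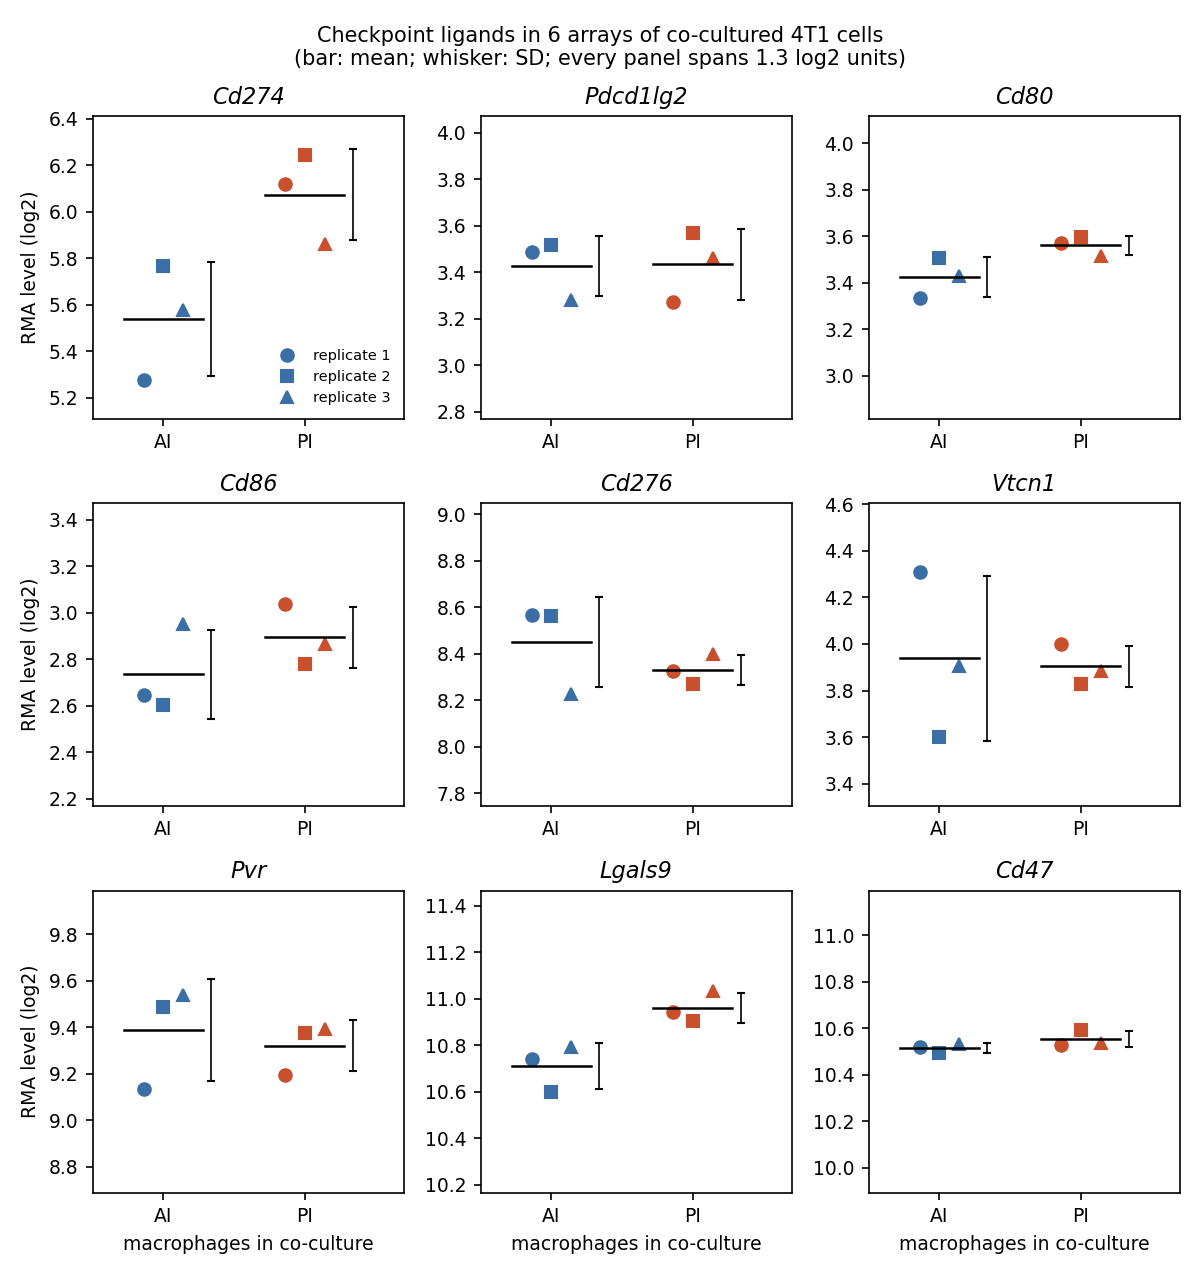
RMA level (log2, y axis) of each of the 9 ligands in the AI and PI arrays (x axis), with points shaped by replicate number, the group mean as a bar and the SD as a whisker. All panels span the same log2 range. Cd274, Lgals9 and Cd80 have all PI arrays above all AI arrays, and the other 6 ligands overlap.

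Of the ligands outside the B7 family, Lgals9 had the clearest separation. Lgals9 (cluster 17266520, Entrez 16859) had 10.94, 10.91 and 11.03 in PI and 10.74, 10.60 and 10.79 in AI. All PI arrays were above all AI arrays, by 0.11 at the closest. The means of 10.96 ± 0.07 and 10.71 ± 0.10 (SD, n = 3 each) gave a fold of 1.19, with a 95% interval of 1.03 to 1.37. The limma p was 0.0218 before adjustment and 0.616 after it.

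Pvr (cluster 17487489, Entrez 52118) had 9.20, 9.38 and 9.39 in PI and 9.14, 9.49 and 9.54 in AI. Replicate 1 was the lowest in either group, and the difference was -0.07, from -0.36 to 0.22 (limma adjusted p = 0.933). Cd47 (cluster 17326166, Entrez 16423) varied least of all members, at 10.53, 10.59 and 10.54 in PI and 10.52, 10.49 and 10.53 in AI. Its difference was 0.04, from -0.13 to 0.21 (limma adjusted p = 0.937), and as a fold of PI over AI the 95% interval ran from 0.913 to 1.15. After centring of the arrays the Cd47 difference was -0.0052.

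In all, 3 of 9 ligands (Cd274, Lgals9 and Cd80) had every PI array above every AI array, against 5.85% of all genes. The reverse held for 0 of 9, against 7.32% of all genes. For Cd200, the inhibitory ligand of CD200R on myeloid cells, the shared cluster is also annotated to 2300009N04Rik. It read 3.32, 3.67 and 3.26 in PI and 3.62, 3.74 and 3.45 in AI, with overlapping groups, and its signal cannot be assigned to either gene.

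Whether Cd274 differed more than the other ligands was tested on the within-array difference between Cd274 and each of them. Such a difference shows unequal change and does not say which gene moved. The exact two-sided permutation test over 6 arrays has 20 arrangements and cannot give a p below 0.1. Of 8 comparisons, 5 reached that smallest exact p of 0.1 (adjusted p = 0.16 over the 8), and 0 passed 0.05. They were those with Cd276, Pvr, Pdcd1lg2, Cd47 and Cd80.

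Against Pvr the PI minus AI difference of Cd274 was larger by 0.60 ± 0.16 (SE), with a 95% interval of 0.16 to 1.04 from the pooled SD. Against Cd80 it was larger by 0.40 ± 0.13 (SE), with an interval of 0.04 to 0.75. The excess was 0.65 against Cd276 (-0.02 to 1.33), 0.53 against Pdcd1lg2 (-0.05 to 1.10) and 0.50 against Cd47 (-0.003 to 0.996). Against Lgals9 it was 0.28 (-0.37 to 0.94; exact permutation p = 0.2, adjusted 0.267). With Cd86 it was 0.37 (-0.26 to 1.01) and with Vtcn1 0.57 (-0.46 to 1.60), both with an exact permutation p of 0.3. These intervals are not adjusted for the 8 comparisons. All 8 values were positive, which follows from Cd274 having the largest difference of the ligands. They share the Cd274 measurements and do not count as separate evidence.

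**Figure D3:**
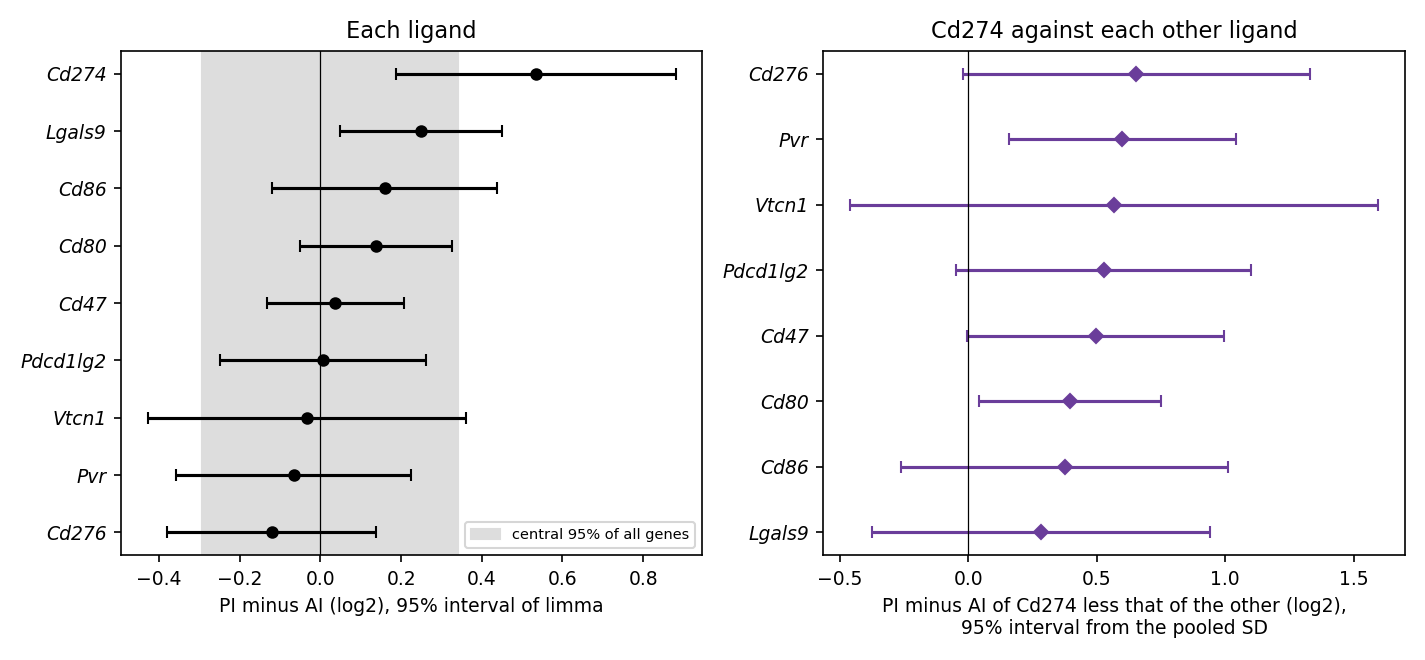
Left, PI minus AI (log2, x axis) of each ligand with its 95% limma interval, over a grey band from -0.29 to 0.34 that holds the central 95% of all genes. Right, by how much the PI minus AI difference of Cd274 exceeds that of each other ligand, with 95% intervals from the pooled SD. Cd274 lies outside the grey band, and the intervals on the right leave out 0 for Pvr and Cd80.

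Across the 6 arrays Cd80 tracked Cd274 most closely among the ligands, with a Pearson r of 0.988. The arrays fell in the same order for both genes, from PI replicate 2 at the top to AI replicate 1 at the bottom. The same order was held by 33 of the other genes, Cd80 included. With Cd274 itself counted, they were 0.145% of all genes. The r of Cd274 with Cd47 was 0.56, with Lgals9 0.52 and with Pdcd1lg2 0.06. These are descriptions over arrays that fall into 2 groups, and Cd80 varied by little at a dim signal.

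**Figure D4:**
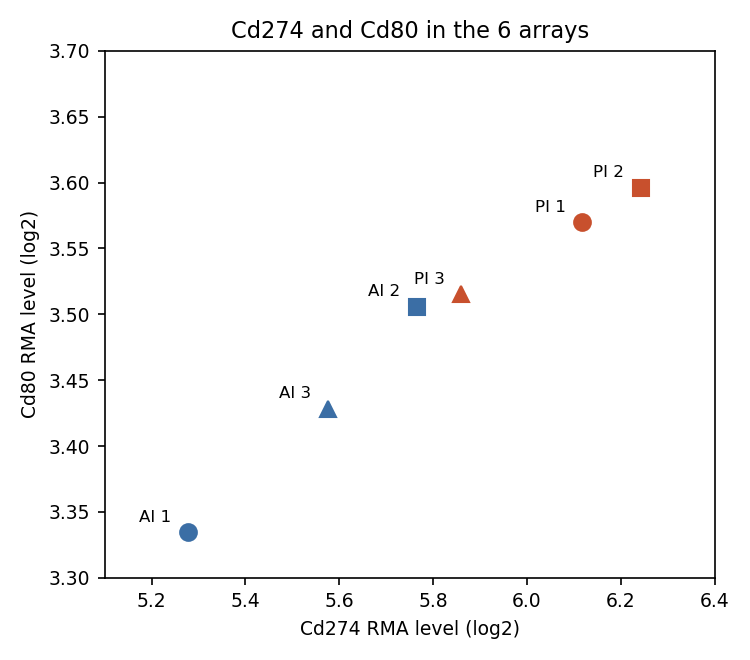
Cd274 level (x axis) against Cd80 level (y axis), both RMA log2, in the 3 AI arrays (blue) and 3 PI arrays (red). The axes have different spans, the x axis being the longer in log2 units. The arrays take the same order on both axes.

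Among 10651 genes brighter than the median, with the ligands and predicted genes left out, the 5 most like Cd274 by Pearson r over the 6 arrays were Kiz, a centrosomal protein (0.985), Gstm1, a glutathione transferase (0.983), Pdia3, an endoplasmic reticulum disulphide isomerase (0.980), Oser1 (0.975) and Insl6, an insulin-like peptide (0.974). Their PI minus AI differences were 0.19, 0.25, 0.07, 0.18 and 0.34, all smaller than that of Cd274 and none past the test.

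Insl6 is also a near neighbour of Cd274 on chromosome 19, which prompted a look at the 4 protein-coding genes on either side, chosen after that value was seen. Insl6 had 7.48, 7.61 and 7.37 in PI and 7.03, 7.21 and 7.22 in AI. Plgrkt, a plasminogen receptor gene whose RefSeq span overlaps that of Cd274, had a difference of 0.21. Rln1, which encodes a relaxin, had 0.13, and Jak2, a kinase of the interferon-gamma receptor, -0.06. On the far side Pdcd1lg2 was at 0.01, Ric1 at -0.29, Ermp1 at -0.24 and Mlana at 0.03. For Insl6 every PI array lay above every AI array, but it was picked for its likeness to Cd274, which makes that separation no separate result. Among the other neighbours, Plgrkt had every PI array above every AI array, against 5.85% of all genes. Jak2, Ric1 and Ermp1 had every PI array below every AI array, against 7.32%. None of the 8 neighbours passed the limma test, against 0.0727% of all genes.

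The DNA before the Cd274 and Lgals9 start sites is shown because these ligands had the largest differences and interferon-driven genes often carry short response elements there. The sequences are from RefSeq on GRCm38.p6, the C57BL/6J reference, and not from 4T1. Windows from 250 bases before to 50 after the start were found for 8 of 10 members. Each was searched on both strands for TTCNNNGAA, the gamma-activated site, and for GAAANNGAAA, the interferon-stimulated response element bound by IRF factors. Capitals mark a match, and the 250 bases before the start are given, on chr19:29367188-29367437 (plus strand) for Cd274 and chr11:78984925-78985174 (minus strand) for Lgals9.
Cd274: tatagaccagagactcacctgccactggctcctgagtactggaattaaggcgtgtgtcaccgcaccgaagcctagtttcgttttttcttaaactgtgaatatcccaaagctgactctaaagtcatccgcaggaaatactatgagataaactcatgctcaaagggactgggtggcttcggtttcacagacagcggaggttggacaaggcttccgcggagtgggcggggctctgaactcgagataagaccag
Lgals9: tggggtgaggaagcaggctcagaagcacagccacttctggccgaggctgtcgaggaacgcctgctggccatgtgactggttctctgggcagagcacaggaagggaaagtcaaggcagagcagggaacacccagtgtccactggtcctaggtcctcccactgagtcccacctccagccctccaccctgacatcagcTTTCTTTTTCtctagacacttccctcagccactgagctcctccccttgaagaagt

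Only Lgals9 among the 8 members held a match. It had GAAANNGAAA in reverse orientation at 55 bases before the start, as TTTCTTTTTC, and again from base 16 after the start, as TTTCTGTTTC. Over 32851 mouse promoter windows of this length, 3.44% held GAAANNGAAA and 8.3% held TTCNNNGAA. The Cd274 window held neither, which says only that these letters are not in this stretch.

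Genes of interferon-gamma signalling to Cd274 were measured beside it. Of the 9 such genes reported here, 0 passed limma in either direction, against 0.0727% of all genes. The list median was -0.02, and 4 had positive and 5 negative differences. Every PI array lay above every AI array in 1 of the 9 (Irf1), against 5.85% of all genes. The reverse held for 3 (Ifngr2, Jak2 and Ptpn2), against 7.32%. Irf1, an interferon-induced transcription factor, had 6.84, 7.05 and 6.80 in AI and 7.67, 7.73 and 7.92 in PI. Its difference of 0.87 just missed the threshold (limma adjusted p = 0.0541), although the groups were far from overlapping. The order of arrays within a group differed from that of Cd274. PI replicate 3 was the lowest PI array for Cd274 and the highest for Irf1, while AI replicate 2 was the highest AI array for both. With 3 arrays in a group such orders decide nothing, and whether Irf1 bears on Cd274 was not tested. Socs1, a feedback inhibitor of the pathway, had a difference of 0.22, and Ifngr2, a chain of the interferon-gamma receptor, had -0.19 (limma adjusted p = 0.724 and 0.680).

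Of 17 other ligands of checkpoint or costimulatory receptors, 0 passed the test, against 0.0727% of all genes, with a median difference of 0.03. H2-T23, whose product Qa-1 engages NKG2A, had 7.87, 7.86 and 7.82 in PI and 7.48, 6.98 and 7.34 in AI, a difference of 0.59. Vsir, which encodes VISTA, had 0.37 and the butyrophilin Btn1a1 0.23 (limma adjusted p = 0.406, 0.381 and 0.724 for the 3 genes). H2-T23 and Vsir were the only 2 of the 17 with PI arrays above AI arrays throughout, against 5.85% of all genes. The reverse held for 0 of 17, against 7.32%.

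Of 10 genes for partners and regulators of the PD-L1 protein, 0 passed, against 0.0727% of all genes, with a median of -0.02. Trim21, an interferon-inducible ubiquitin ligase, had a difference of 0.65 (limma adjusted p = 0.351). Cmtm4, whose product protects PD-L1 from degradation, had -0.20 (limma adjusted p = 0.697), and Qpctl, a glutaminyl cyclase, had -0.13 (0.779). Cmtm6, the relative of Cmtm4 with the same known role, also had -0.20 and was picked out with its value in view. The receptors of the ligands, which are chiefly genes of lymphocytes and myeloid cells, had a median of -0.10 over 9 genes. Of these 9, 0 passed the test, against the same 0.0727%. Pdcd1, which encodes PD-1, had 3.98, 3.72 and 3.78 in PI and 4.06, 4.13 and 4.09 in AI, a difference of -0.27 (limma adjusted p = 0.616). Havcr2, Cd200r1 and Cd28 had -0.16, -0.15 and -0.14.

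**Figure D5:**
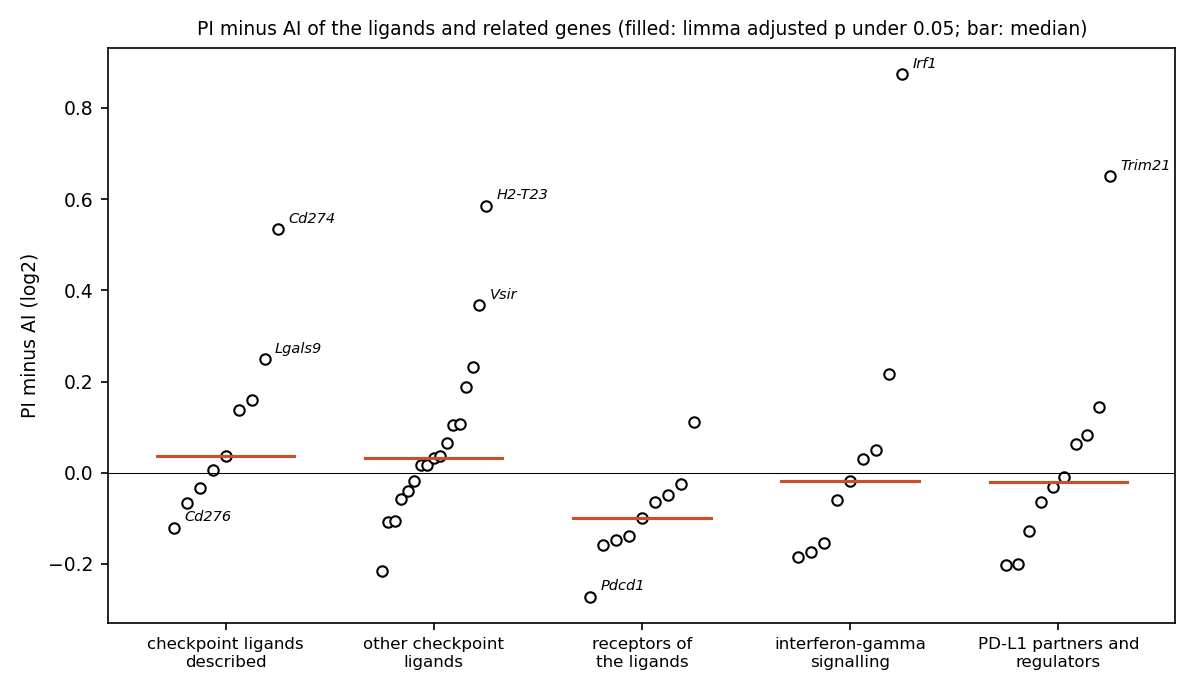
PI minus AI (log2, y axis) of the 9 ligands and of 4 lists of related genes (x axis), 1 circle a gene, filled where the limma adjusted p is under 0.05, with list medians as bars. No circle is filled, and Cd274, H2-T23, Trim21 and Irf1 stand above the rest of their lists.

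Macrophages also express several of these ligands, and in bulk RNA fewer cells of a type and less RNA per cell cannot be told apart. Of 18 macrophage markers, 0 passed in either direction, against 0.0727% of all genes. At so low a share, a count of 0 in a short list says little. Differences were positive in 10 and negative in 8, and the median was 0.00. The mean level of the list was 4.33 to 4.37 over PI arrays and 4.28 to 4.38 over AI arrays, and 15 of the 18 lay below the median gene. Itgam, the gene for CD11b, had 2.98 in PI and 2.97 in AI, Adgre1 3.74 in each, Csf1r 3.43 and 3.52, Ptprc 3.16 and 3.37, Lyz2 3.65 and 3.46, and Cd68 7.51 and 7.48. Mpeg1, a pore-forming protein of macrophages, had a difference of 0.58 (limma adjusted p = 0.476). It was the only marker of the 18 with PI arrays above AI arrays throughout, against 5.85% of all genes. Cd14, a coreceptor for bacterial lipopolysaccharide and 1 of the brighter markers at percentile 85.1, had -0.23 (limma adjusted p = 0.662). It was the only marker of the 18 with PI arrays below AI arrays throughout, against 7.32% of all genes. Neither count stands out from its share. Cd14 and Mpeg1 were named after a look at their values. The part of these genes, and that of residual macrophages, in the values of Cd274 and Cd80 was not tested.

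Of 10 carcinoma markers, Krt8 and Krt18 were bright, at 10.70 in PI and 10.81 in AI and at 10.89 and 11.11. Epcam was in the middle of the range, at 5.69 and 5.88, and 2 of the 10, Krt19 and Cldn7, lay below the median gene. The median difference of the 10 was -0.14, with 0 past the test, against 0.0727% of all genes. In 3 of them, Epcam, Krt8 and Krt14, every PI array lay below every AI array, against 7.32% of all genes, the reverse of Cd274 in the same arrays. Krt14, a basal keratin, had the largest difference, at -0.41 (limma adjusted p = 0.616). Krt14, Krt19 and Cldn7 are named with their values in view, and whether the share of carcinoma RNA bears on Cd274 was not tested. The receptors that the labels give as lacking had levels of 5.39 and 5.18 for Esr1, 3.18 and 3.07 for Pgr, and 7.78 and 7.93 for Erbb2. The Erbb2 signal lay at percentile 80.5 of all genes, and an array signal gives no level of the HER2 protein. Of 7 dendritic cell markers, 7 T and NK cell markers, and 7 endothelial and fibroblast markers, 0 passed, against 0.0727% of all genes. Their medians were 0.01, -0.02 and 0.01.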

How the data were processed

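Per the submitters' processing notes, the deposited log2 values were made with Affymetrix Expression Console and RMA, versions not given; no source used here gives the genome build or the array annotation. The 2 deposited tables held the same values for 41345 clusters on 6 arrays, from 1.33 to 13.89, with 0 differences and 0 unused sample columns. The deposited p-value, q-value and fold columns are the authors' own, per the file headers; the fold equals AI over PI for all 41345 clusters within 1e-05, while all differences here are PI minus AI.

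Of the clusters, 24724 had 1 symbol, updated by Entrez identifier with RefSeq names (GRCm38.p6; 23652 matched). A gene was represented by its cluster of highest mean, which gave 23385 genes. No dim gene was filtered out. The groups were tested in limma 3.58.1 (R 4.3.3, lmFit and eBayes, group only, two-sided, Benjamini-Hochberg over all genes). The same fit was run on simulated data with normal noise, and its recovery of planted changes is not given here. Ratios with Cd274 were planned for 9 ligands and made for 8, since Cd200 had no cluster of its own; their exact permutation p-values were adjusted over the 8. Python 3.11.15 with pandas 2.3.3, scipy 1.17.1 and matplotlib 3.10.9 did the rest.

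Groups and replicate numbers came from the titles. Array number, with correlations between arrays of 0.994 to 0.995 over genes, limits the precision, and the median standard error was 0.11. The members, lists and tests were chosen with earlier results of these data known. From each pathway list, genes past the threshold, or else the 3 of smallest p, were named, besides a fixed set of signalling and marker genes; others are marked. A gene of the interferon-gamma list is not reported here. The labels do not say if arrays of equal number shared a mouse, so the fit has no block. Deviations from group means of same-numbered arrays correlated at 0.04, 0.01 and 0.06. Those of differently numbered PI and AI arrays correlated at -0.08 to 0.04. These values do not decide whether the arrays were paired.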

Additional observations from a re-analysis of the deposited data

How the results depend on the processing

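Under none of the 13 alternatives did any ligand pass, and the 4 dim ones were not tested among genes above the median level. Cd274 kept a positive difference throughout, from 0.40 without AI replicate 1 to 0.65 without AI replicate 2, with limma adjusted p from 0.326 to 0.771. Lgals9 stayed between 0.19 and 0.29, with adjusted p from 0.178 to 0.819. With the replicate number as a block, Cd274 had an adjusted p of 0.611 and Lgals9 of 0.661, and 1 gene in all passed. The count of all genes past the threshold, 17, was 76 with an intensity trend and robust variance, 42 among genes above the median level, and 42 at an adjusted p under 0.1. Leaving out each array gave 1 to 14 genes. The count was 1 with PI replicate 2 left out and 4 with PI replicate 3 left out. It was 7 when AI lost replicate 1 or 3. The cause was not tested. Signs near 0 were not stable. Pdcd1lg2 was at -0.030 after quantile normalisation, -0.037 after centring and -0.069 to 0.087 with an array left out. Vtcn1 ran from -0.20 to 0.15 and Pvr from -0.19 to 0.010 with an array left out, and Cd47 was at -0.0052 after centring, which moved the median of all genes from -0.01 to -0.05. The 8 excesses of Cd274 over other ligands stayed positive under every setting run. These signs follow from Cd274 having the largest difference of the ligands in each setting, and add nothing to it. With an array left out, the excess over Lgals9 ran from 0.14 to 0.45, over Vtcn1 from 0.25 to 0.85 and over Cd86 from 0.23 to 0.55. The lowest came without AI replicate 1 (PI replicate 2 for Cd86) and the highest without AI replicate 2. Cd276 itself ran from -0.23 (AI replicate 3 left out) to -0.064 (AI replicate 1) and Cd86 from 0.088 to 0.27. List medians moved for interferon-gamma signalling, to -0.061 after centring and -0.055 to 0.025 with an array left out, and for the receptors, to 0.024 when only the 2 brighter genes were kept. At a spread of this size, the widest 95% interval of a member reached 0.39 to either side (Vtcn1) and the narrowest 0.17 (Cd47). After adjustment over all genes the smallest difference that passed was 0.84.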

Other observations

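Tigit, the lymphocyte receptor of PVR, had a bright signal for a tumour fraction, with 8.46, 8.55 and 8.44 in PI and 8.46, 8.59 and 8.59 in AI, at percentile 86.7 of all genes, while T and NK cell markers such as Cd3e lay near 3.21 in PI and 3.06 in AI. The dendritic cell gene Cd209a was likewise bright, at 7.58 and 7.57. The dendritic cell receptor Ccr7 had 5.84, 5.74 and 5.62 in PI and 5.76, 4.80 and 4.66 in AI, a difference of 0.66 (limma adjusted p = 0.662) in which AI replicate 1 sat with the PI arrays. These 3 genes were chosen after their values were seen.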
